A study of Homo sapiens with 9 samples.

Results

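The high mobility group (HMG) proteins and the acidic nuclear phosphoproteins of the ANP32 family are small, abundant proteins that bind chromatin or handle histones. The genes examined were HMGB1, HMGB2, HMGB3, HMGA1, HMGA2, HMGN1, HMGN2, ANP32A, ANP32B and ANP32E, 10 of the 61544 genes listed, chosen by name. That choice was made with results of these same libraries already known, so the levels and fold changes of the 10 genes are given as a description, without p-values, and nothing is inferred from how many of them moved. RNA had been sequenced from HMC3, a human microglial line immortalized with SV40 T antigen and wild type by its label, in 9 libraries. Vehicle cells (VEH, n = 3) received DMSO, SLO ½ cells (n = 3) received SBI-0206965 at 5 µM with O-151 and Lopinavir at 0.5 µM each, and SLO cells (n = 3) received 10 µM, 1 µM and 1 µM of the same compounds, each for 6 days. SBI-0206965 inhibits the autophagy kinase ULK1, O-151 inhibits the DNA glycosylase OGG1, and Lopinavir, a protease inhibitor used against HIV, also blocks the maturation of lamin A. The 3 compounds were always given together, so no effect can be assigned to any one of them.

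Each family touches chromatin in its own way. HMGB proteins carry HMG boxes that bend DNA, and HMGB1 is also an alarmin that damaged or senescent cells release and that receptors such as TLR4 and RAGE (gene AGER) detect. HMGA proteins bind the minor groove of AT-rich DNA through AT-hooks, are high in embryonic and tumour cells, and are known components of senescence-associated heterochromatin foci. HMGN proteins bind the nucleosome itself and loosen compact chromatin. ANP32 proteins combine leucine-rich repeats with an acidic tail: ANP32E removes the histone variant H2A.Z from nucleosomes, ANP32A inhibits the phosphatase PP2A and masks histones from acetylation together with SET, and ANP32B is a histone chaperone. Loss of HMGB2 from chromatin and release of HMGB1 are both known features of senescent cells.

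Reads assigned to genes ranged from 14834295 to 19674841 per library, and every one of the 10 genes passed the filter on low counts, which left 14727 genes tested. The least abundant, HMGA2, had 391 to 2079 reads per library and the others at least 1523. Defining microglial markers were close to absent in this line, with P2RY12 at 0 in every library and the summed TPM (transcript abundance corrected for gene length and scaled to the same total in each library) of 10 markers at 1.46 to 2.52 in VEH libraries against 4.11 to 6.31 with SLO ½ and 4.80 to 5.08 with the full dose, whereas 7 fibroblast markers, with most of the sum from COL1A1, came to 1360 to 1588 TPM in VEH, 1651 to 1680 TPM with SLO ½ and 1949 to 2034 TPM with the full dose. A mean of at least 1 TPM was reached by 4 of the 7 fibroblast markers and 1 of the 10 microglial markers in each group. The summed level of 6 pericyte or smooth muscle markers, led by TAGLN, was 395 to 401 TPM in VEH libraries, 754 to 770 with SLO ½ and 1140 to 1246 with the full dose. Of the 5 that were tested, 4 were called higher and 1 lower by edgeR in SLO against VEH, beside 32.9% and 32.1% of all tested genes. The sums of 4 astrocyte markers (3.63 to 4.68 TPM in VEH and 8.02 to 8.57 TPM in SLO, with AQP4 at 0 in every library) and of 4 neuron markers (3.23 to 3.74 TPM in VEH and 6.11 to 6.66 TPM in SLO) were low and also higher with treatment. Only 2 astrocyte markers were tested, and 1 was called higher and 1 lower in SLO against VEH. Called higher in that comparison were 2 of 2 microglial, 3 of 4 fibroblast and 2 of 3 neuron markers tested, with none lower. Mitochondrial transcripts took 1.30% to 1.61% of gene reads in VEH, against 2.30% to 2.86% with SLO ½ and 2.51% to 3.12% with the full dose, and the part of these shifts in the differences below was not tested. In bulk RNA, fewer cells expressing a gene and less RNA per cell cannot be told apart. Nothing in the labels says that replicates came from separate cultures on separate days, so the spread between them may be technical.

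All 10 genes were lower in SLO than in VEH. No library of SLO reached the lowest library of VEH for any of them in CPM (read counts scaled to library size after TMM correction). TMM adjusts library sizes for differences in RNA composition, with factors of 0.968 to 0.974 in VEH and 1.015 to 1.035 in SLO. Non-overlap was not examined with scaling by library size only, where HMGB3 changed by −0.03 on the log2 scale. The log2 fold changes on the CPM scale ran from −2.11 for HMGA1 to −0.11 for HMGB3, with a median of −0.95, against a median of 0.014 over all tested genes. In that comparison 10 of 10 were called lower by edgeR's quasi-likelihood fit at an adjusted p below 0.05, beside 32.1% of all tested genes. Ranges that did not overlap in the lower direction were found for 33.0% of all tested genes. In SLO ½ against VEH 8 of 10 were called lower (25.3% of all tested genes), the exceptions being HMGB3 and HMGN1, which some alternative settings did call, and the median of the 10 was −0.44. From SLO ½ to SLO 7 of 10 were called lower (20.3% of all tested genes), the exceptions being HMGB3, HMGN1 and HMGN2, and the median was −0.38. None was called higher in any comparison, where 32.9%, 26.7% and 20.8% of all tested genes were. The comparisons with VEH share the same control libraries, and SLO ½ libraries enter both single-dose steps.

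**Figure D1:**
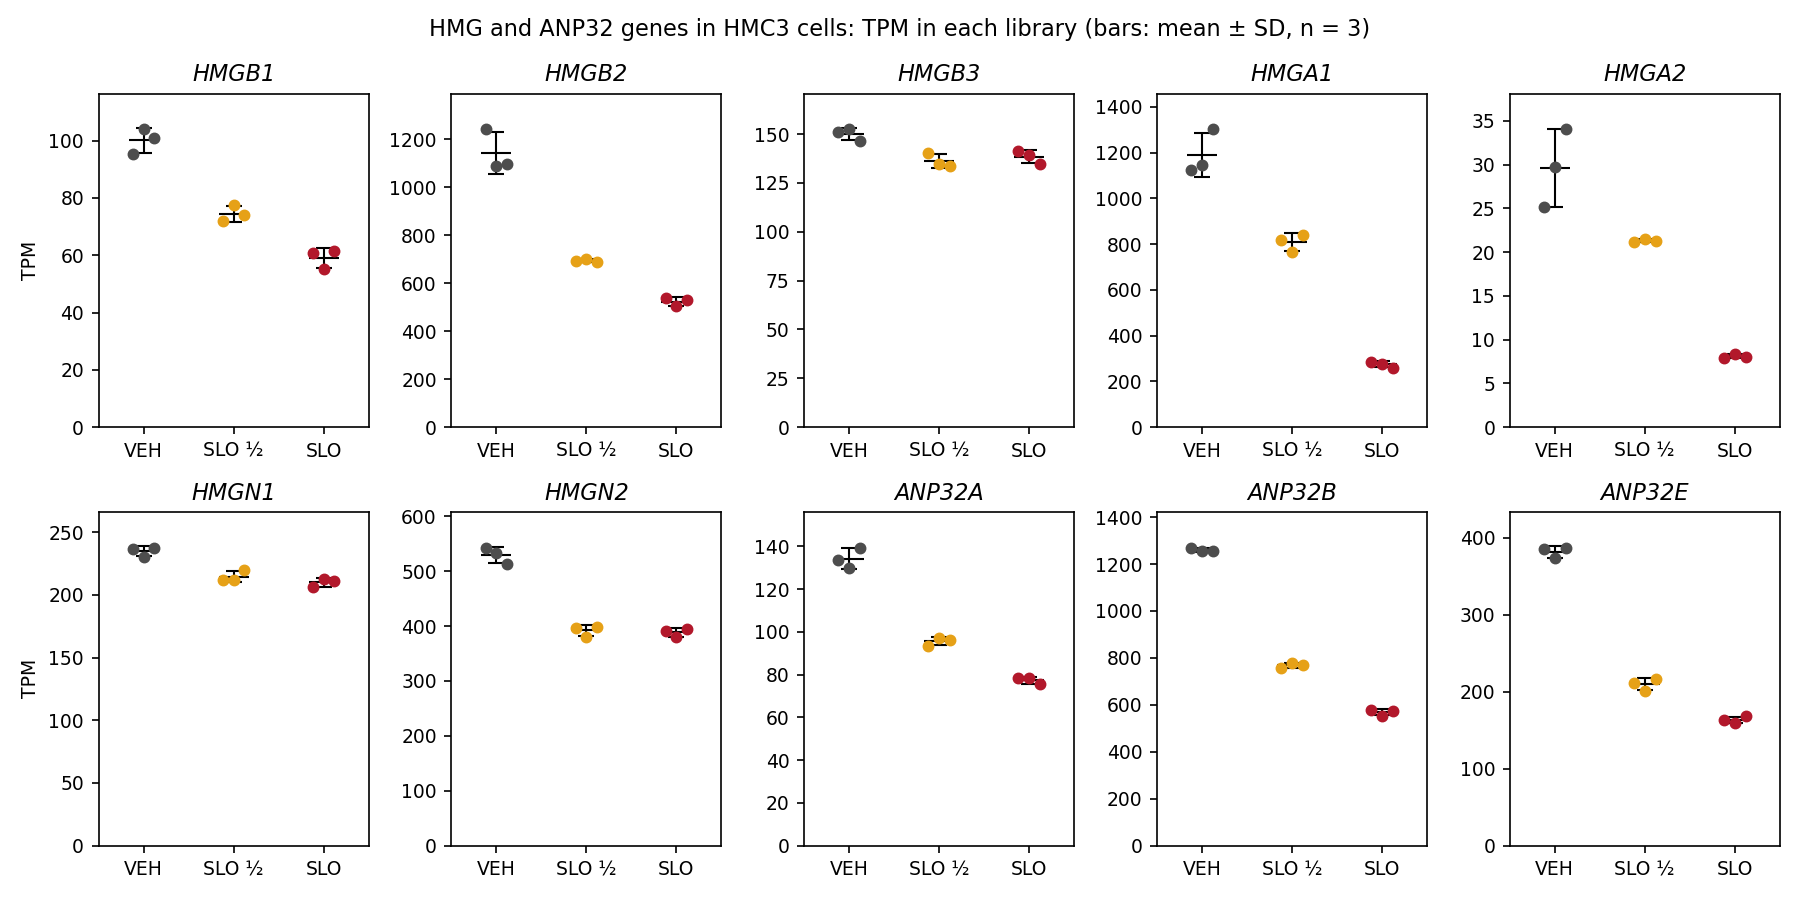
TPM (vertical axes, each from 0) of the 10 genes in the 9 libraries, by treatment (VEH, SLO ½, SLO); dots are libraries and bars the mean ± SD of 3. HMGA1 drops from 1126 to 1302 in VEH to 260 to 286 in SLO, while HMGB3 stays between 134 and 152 in all libraries.

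The steepest falls were those of the AT-hook genes. HMGA1 (chr6:34236873-34246231, GRCh38) stood at 1126, 1145 and 1302 TPM in the VEH libraries, at 820, 767 and 841 TPM in SLO ½ and at 286, 277 and 260 TPM in SLO. The 3 groups did not overlap, and the drop between the doses was the wider of its 2 steps. Its log2 fold change in CPM was −0.52 ± 0.05 (SE) in SLO ½ against VEH, −1.60 ± 0.05 in SLO against SLO ½ and −2.11 ± 0.05 in SLO against VEH, a 4.32-fold lower level. Only 20 of the 14727 tested genes had a more negative fold change in SLO against VEH.

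HMGA2 (chr12:65824460-65966291), an oncofetal relative of HMGA1 that is silent in most adult tissues, followed the same course from a much lower level. It was at 25.1, 29.7 and 34.0 TPM in VEH, 21.1, 21.4 and 21.3 TPM in SLO ½ and 7.94, 8.38 and 8.07 TPM in SLO. The VEH libraries were the most scattered, and libraries given the same dose lay within 1 TPM of each other. In CPM the log2 fold change was −0.44 ± 0.07 in SLO ½, −1.42 ± 0.08 from SLO ½ to SLO and −1.86 ± 0.07 in SLO against VEH (3.63-fold lower), with 42 tested genes more negative in the last. Leaving out a VEH library in turn gave SLO ½ values between −0.54 and −0.33.

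HMGA2 is a classical target of the let-7 microRNAs, which bind its long 3′ untranslated region (UTR). Complementarity was therefore looked up in the UTRs of the canonical GENCODE v44 transcripts, a step chosen after the expression values had been seen. The mature hsa-let-7a-5p is shown first, from RefSeq, with its seed (bases 2 to 8) in capitals, followed by the 4 places in the HMGA2 3′ UTR that hold CTACCTC, the complement of that seed, in capitals, each with 14 bases before it and 1 after:
hsa-let-7a-5p: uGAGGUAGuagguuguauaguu
HMGA2 chr12:65963299-65963320 (+): ccaacgttcgatttCTACCTCa
HMGA2 chr12:65964534-65964555 (+): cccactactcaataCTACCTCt
HMGA2 chr12:65964946-65964967 (+): tgacttgcaaagacCTACCTCc
HMGA2 chr12:65965799-65965820 (+): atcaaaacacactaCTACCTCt

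The matches begin 21, 1256, 1668 and 2521 bases into the 2999-base UTR. Of 19538 protein-coding transcripts with a 3′ UTR, 9.77% held the 7 letters at least once and 12 held them 4 times or more. HMGA1 held 1 match in 1347 bases, and the other 8 genes held none, HMGB1 with 4653 bases included. A match is a description of the sequence and not a shown site. Mature let-7 was not measured in these polyadenylated libraries. The host transcript MIRLET7BHG, from which let-7a-3 and let-7b derive, rose from 3.40, 4.38 and 3.67 TPM in VEH to 5.90, 6.75 and 6.32 TPM in SLO (log2 fold change in CPM 0.74 ± 0.12, edgeR adjusted p = 6.98e-06), and LIN28A and LIN28B, which block let-7 maturation, had mean TPM below 1 in each group. These 3 genes were picked out after their values had been seen, and no other let-7 host transcript is given here. The part of let-7 in the fall of HMGA2 was not tested.

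Other genes tied to HMGA2 were mostly lower. Of 7 tested on a list of its regulators and targets, 5 were called lower and 1 higher in SLO against VEH. Over all tested genes the shares were 32.1% and 32.9%, and the median log2 fold change of the 7 was −0.46. IGF2BP2, an RNA-binding protein whose gene HMGA2 activates, fell from a mean of 264 TPM in VEH to 179 TPM in SLO ½ and 131 TPM in SLO (log2 fold change in CPM −1.01 ± 0.04 in SLO against VEH, edgeR adjusted p = 6.38e-19). Its fall was spread over both steps, −0.52 in SLO ½ and −0.49 from SLO ½ to SLO, unlike the 2 steps of HMGA2 given above. The related IGF2BP1 fell by 0.81 on the log2 scale (edgeR adjusted p = 2.28e-14), and TUT4, a uridylyltransferase that acts on let-7 precursors, by 0.46 (adjusted p = 5.81e-10).

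**Figure D2:**
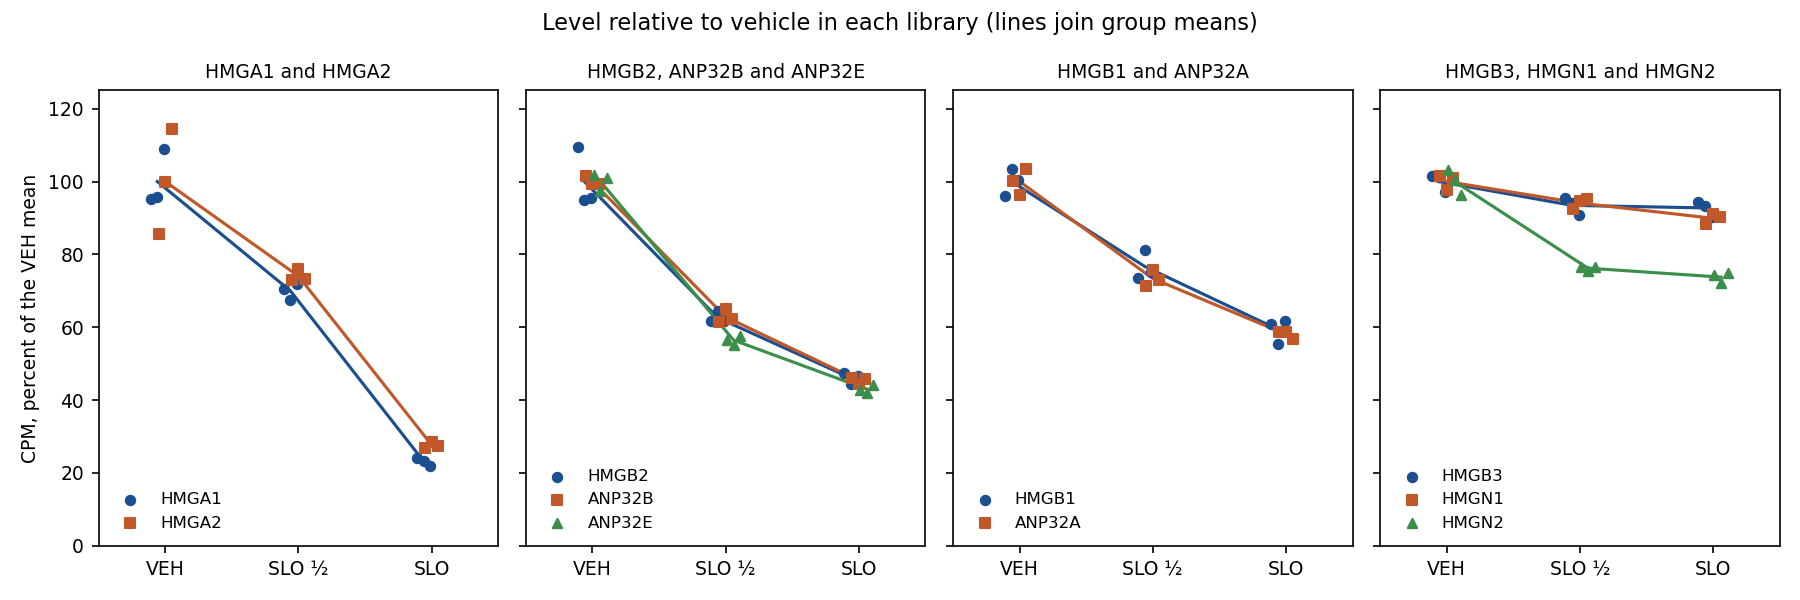
CPM of each gene in each library as a percentage of its VEH mean (vertical axis), by treatment; symbols are libraries and lines join group means. At the full dose HMGA1 and HMGA2 stood at 23.1% and 27.6% of VEH, HMGB2, ANP32B and ANP32E at 43.0% to 46.0%, HMGB1 and ANP32A at 59.4% and 58.0%, HMGN2 at 73.7%, and HMGB3 and HMGN1 at 92.8% and 89.9%.

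Among the HMG box genes, HMGB2 lost the most. HMGB2 (chr4:173331376-173334432), abundant in dividing cells, stood at 1242, 1090 and 1095 TPM in VEH, at 691, 702 and 690 TPM in SLO ½ and at 538, 503 and 529 TPM in SLO. No 2 groups overlapped, and VEH replicate 1 lay above the other 2 VEH libraries. The CPM log2 fold change was −0.68 ± 0.05 in SLO ½, −0.44 ± 0.05 from SLO ½ to SLO and −1.12 ± 0.05 in SLO against VEH, so that most of the drop was present in SLO ½.

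HMGB1 (chr13:30456704-30617597), the alarmin of the family, was lower at each dose by about the same step. Its TPM was 95.4, 104 and 101 in the VEH libraries, 72.1, 77.6 and 73.9 in those of SLO ½ and 60.7, 55.2 and 61.6 in those of SLO. The groups did not overlap. In CPM it changed by −0.38 ± 0.05 in SLO ½, −0.37 ± 0.05 from SLO ½ to SLO and −0.75 ± 0.05 overall (1.69-fold lower). The absolute level of HMGB1 is uncertain, because 48 named pseudogenes copy its transcript and only uniquely aligned reads were counted. Of the 50-base windows in its annotated exons, 9.11% occurred unchanged in the exons of a named pseudogene. The pseudogenes together held 75 to 216 reads per library, 4.92% to 6.86% of the reads of HMGB1, most in HMGB1P5 (51 to 169 reads), which was itself lower in SLO (−1.19 ± 0.13).

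HMGB3 (chrX:150980509-150990771), the third HMG box gene and one known from stem cells and haematopoietic progenitors, hardly moved. Its TPM was 151, 152 and 146 in the VEH libraries, 140, 135 and 134 in those of SLO ½ and 141, 139 and 135 in those of SLO. Treated libraries of both doses overlapped each other and lay below VEH. The CPM log2 fold change was −0.10 ± 0.04 in SLO ½, −0.01 ± 0.04 from SLO ½ to SLO and −0.11 ± 0.04 in SLO against VEH. The call in SLO against VEH was lost with scaling by library size only (−0.03), with at least 10 counts required in every library (−0.08) and without VEH replicate 1, VEH replicate 2 or SLO replicate 3 (−0.09 to −0.10). In SLO ½ against VEH it was instead called lower with DESeq2 size factors (−0.11), the replicate block (−0.10), both limma fits on log2 TPM (−0.14) and without VEH replicate 3 (−0.12).

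The nucleosome-binding genes split in a similar way. HMGN2 (chr1:26472440-26476642) stood at 543, 533 and 513 TPM in VEH, 397, 381 and 398 TPM in SLO ½ and 392, 379 and 394 TPM in SLO. Both doses lay well below VEH, and in TPM they overlapped each other. In CPM the change was −0.39 ± 0.04 in SLO ½, −0.05 ± 0.04 from SLO ½ to SLO and −0.44 ± 0.04 overall. HMGN2 too has many copies, with 38 named pseudogenes holding 5.82% to 6.44% of its read number, and the largest, HMGN2P5 (229 to 408 reads), changed by −0.50 ± 0.08 in SLO against VEH.

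HMGN1 (chr21:39342315-39349647) showed a far smaller difference, at 236, 230 and 238 TPM in VEH, 212, 212 and 220 TPM in SLO ½ and 206, 213 and 211 TPM in SLO. VEH lay above both doses, which overlapped each other in TPM but not in CPM. Its CPM log2 fold change was −0.09 ± 0.04 in SLO ½, −0.07 ± 0.04 from SLO ½ to SLO and −0.15 ± 0.04 in SLO against VEH, and it was not called in the last with scaling by library size only (−0.08). In SLO ½ against VEH it was called lower with DESeq2 size factors and with DESeq2 (−0.10 in both), with both limma fits (−0.13) and without VEH replicate 2 (−0.11). Relatives outside the 10 moved either way: HMGN4 fell by 0.33 on the log2 scale (edgeR adjusted p = 1.09e-06) and HMGN3 rose by 0.33 (edgeR adjusted p = 0.000335). Both were picked out after their values had been seen.

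All 3 ANP32 genes fell at each step. ANP32E (chr1:150218417-150236156), the H2A.Z chaperone, was at 386, 373 and 387 TPM in VEH, 211, 201 and 216 TPM in SLO ½ and 163, 159 and 168 TPM in SLO. The libraries of each group lay close together and no groups overlapped. It had the most negative SLO ½ change of the 10, at −0.83 ± 0.04 on the log2 CPM scale, followed by −0.39 ± 0.04 from SLO ½ to SLO, and stood 2.33-fold below VEH in SLO.

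ANP32B (chr9:97983341-98015943), one of the 3 most abundant of the 10 in VEH, was at 1269, 1254 and 1255 TPM there, 756, 780 and 769 TPM in SLO ½ and 577, 554 and 574 TPM in SLO. Its CPM log2 fold change was −0.67 ± 0.04 in SLO ½, −0.47 ± 0.04 from SLO ½ to SLO and −1.14 ± 0.04 overall. Replicates were tight at each dose, and the groups were far apart.

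ANP32A (chr15:68778535-68820897), the PP2A inhibitor, was at 133, 130 and 139 TPM in VEH, 93.6, 97.1 and 96.2 TPM in SLO ½ and 78.4, 78.5 and 75.6 TPM in SLO. It changed by −0.45 ± 0.04 in SLO ½, −0.34 ± 0.04 from SLO ½ to SLO and −0.79 ± 0.04 overall in CPM, less than ANP32B and ANP32E and close to HMGB1. Apart from HMGB1 and HMGN2, the reads of named pseudogenes came to at most 1.23% of those of the parent gene, and adding them left each fold change nearly as it was. Only uniquely aligned reads could be added, so that check does not cover reads shared between a gene and its pseudogenes.

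**Figure D3:**
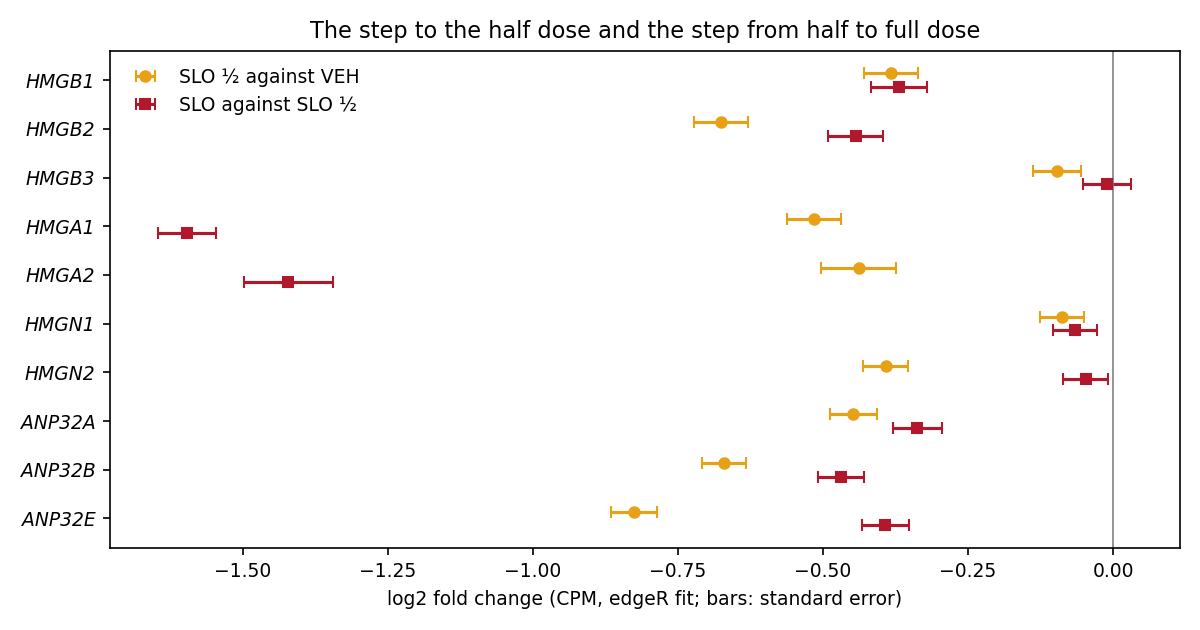
log2 fold change in CPM (horizontal axis, points with standard errors from the edgeR fit) for the step from VEH to SLO ½ and the step from SLO ½ to SLO, for each of the 10 genes. HMGA1 and HMGA2 have their larger change in the second step (−1.60 and −1.42), ANP32E its larger change in the first (−0.83), and HMGB1 steps of about the same size.

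The profiles paired genes across families rather than only within them. Likeness was measured as the root-mean-square difference of mean-centred log2 CPM over the 9 libraries, a description with no test. Of the 10 genes the closest pair was HMGB2 with ANP32B (0.048), followed by HMGB3 with HMGN1 (0.050), HMGB1 with ANP32A (0.072) and ANP32B with ANP32E (0.073). HMGA1 was closest to HMGA2 (0.14). Since treatment dominates these profiles, any genes that fell by equal amounts at each dose come out as alike.

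Outside the 10, the nearest genes of at least moderate level were likewise mixed in kind. HMGB1 was nearest to PTMA (0.034), which encodes the acidic nuclear protein prothymosin alpha, then to SHMT2 (0.045), an enzyme of mitochondrial serine metabolism, the ribosomal protein genes RPL5 (0.047) and RPS6 (0.051), and CNOT7 (0.051), a deadenylase. ANP32E was nearest to ATP8B3 (0.046), ZNF714 (0.071), the translation factor gene EIF4B (0.072), the tRNA exporter gene XPOT (0.079) and MTMR4 (0.083). EIF4B (0.062) and XPOT (0.070) were also among the nearest to HMGB2, with NEGR1 (0.054), DIAPH2 (0.077) and UFSP2 (0.077). The nearest to HMGA2 were more distant: SH2D5 (0.14), CPED1 (0.16), the ETS factor gene ETV4 (0.17), ADAMTS6 (0.18) and CCBE1 (0.19). PTMA stood at a mean of 1140 TPM in VEH and changed by −0.40 and −0.73 on the log2 CPM scale in SLO ½ and SLO, beside −0.38 and −0.75 for HMGB1.

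By length-corrected level, ANP32B (1259 ± 8.69 TPM, SD, n = 3), HMGA1 (1191 ± 96.8) and HMGB2 (1142 ± 86.3) led in VEH with overlapping libraries. They were followed without overlap by HMGN2 (529 ± 15.4), ANP32E (382 ± 7.73), HMGN1 (235 ± 3.97), HMGB3 (150 ± 3.17), ANP32A (134 ± 4.87), HMGB1 (100.2 ± 4.37) and HMGA2 (29.6 ± 4.46). In SLO ½ HMGA1 (810 ± 38.1) and ANP32B (768 ± 11.6) overlapped at the top, and HMGN1 (214 ± 4.46) overlapped ANP32E (209 ± 7.78). In SLO no neighbours overlapped, HMGA1 (274 ± 13.3) had dropped to the fourth place below HMGN2 (388 ± 7.94), and HMGN1 (209.8 ± 3.31) stood above ANP32E (163 ± 4.22). The order at the bottom, HMGB3, ANP32A, HMGB1 and HMGA2, was the same at every dose.

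Summed over the 10 genes, TPM was 5153 ± 96.7 (SD, n = 3) in VEH, 3416 ± 43.3 with SLO ½ (66.3% of VEH) and 2411 ± 42.2 in SLO (46.8% of VEH). ANP32B, HMGB2 and HMGA1 made up most of it in VEH. The share of HMGA1 was 23.1% ± 1.72 under VEH, 23.7% ± 0.833 with SLO ½ but 11.4% ± 0.533 with the full dose, while that of HMGN2 went from 10.3% ± 0.389 to 11.5% ± 0.173 and 16.1% ± 0.178. The share of HMGN1 was 4.55% ± 0.0149 in VEH and 8.71% ± 0.286 in SLO.

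**Figure D4:**
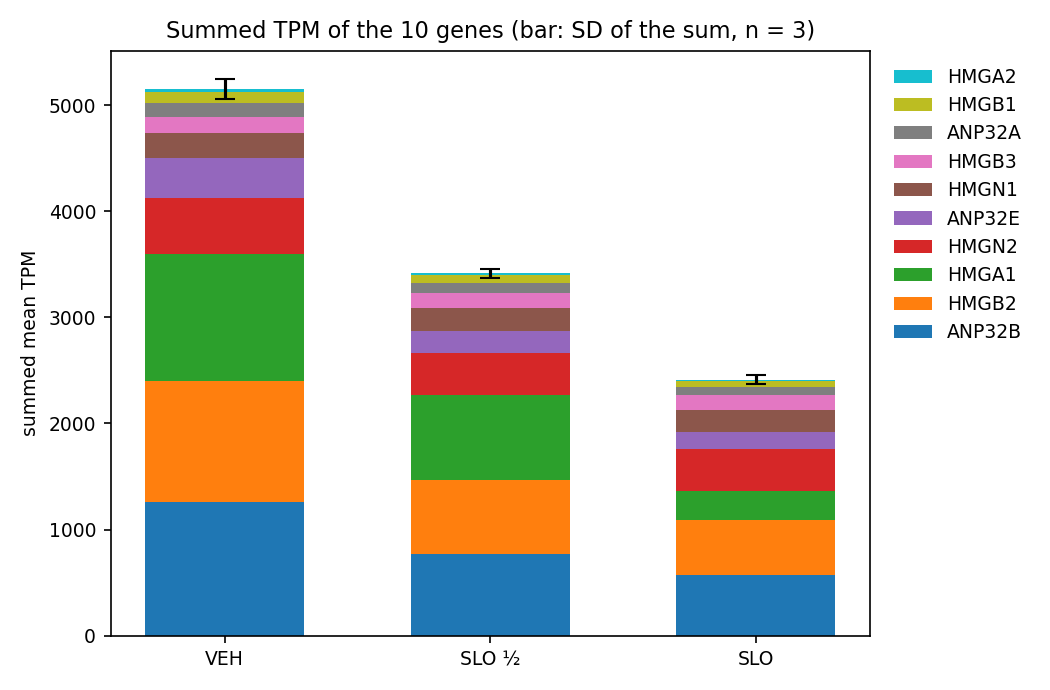
Mean TPM of the 10 genes stacked by treatment (vertical axis from 0), with the SD of the sum over 3 libraries as a bar. The sum is 5153 under VEH, 3416 under SLO ½ and 2411 under SLO, and the HMGA1 segment shrinks from 1191 to 274 between VEH and SLO.

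Promoters were compared because NF-Y, which binds CCAAT boxes, drives many genes of the dividing cell. RefSeq (GRCh38.p14) gave 11 starts for 7 of the genes, with 250 bases before and 50 after each. HMGB2, HMGA2 and ANP32E have no entry in this set. CCAAT on either strand was found in 8 of the 11 windows, against 34.6% of 35116 promoters, and 3 of the 11, those of HMGB1, HMGB3 and ANP32A, held it 3 times, against 3.26% of all promoters. Shown are the 150 bases upstream of those 3 starts and of the single ANP32B start, which held none, in the direction of transcription with CCAAT or its complement ATTGG in capitals:
HMGB1 chr13:30465937-30466086 (−): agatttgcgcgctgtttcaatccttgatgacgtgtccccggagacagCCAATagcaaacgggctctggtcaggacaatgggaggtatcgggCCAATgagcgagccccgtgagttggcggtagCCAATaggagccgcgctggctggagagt
ANP32A chr15:68820896-68821045 (−): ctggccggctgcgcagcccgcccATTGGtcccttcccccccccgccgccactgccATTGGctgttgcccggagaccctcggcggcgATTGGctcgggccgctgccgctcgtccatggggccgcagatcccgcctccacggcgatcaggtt
HMGB3 chrX:150983185-150983334 (+): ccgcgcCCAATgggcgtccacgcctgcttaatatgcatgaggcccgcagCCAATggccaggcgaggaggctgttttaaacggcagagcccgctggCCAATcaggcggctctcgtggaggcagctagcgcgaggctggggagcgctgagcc
ANP32B chr9:97983191-97983340 (+): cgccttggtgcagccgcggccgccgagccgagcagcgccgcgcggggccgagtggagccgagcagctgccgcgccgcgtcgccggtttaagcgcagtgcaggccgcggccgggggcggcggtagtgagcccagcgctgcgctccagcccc

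The boxes began 103, 59 and 28 bases before the HMGB1 start on the strand of the gene, 127, 95 and 64 bases before that of ANP32A on the opposite strand, and 144, 101 and 55 bases before that of HMGB3. HMGN1 held 2 boxes, HMGN2 held 1, each of the 2 HMGA1 windows held 1, and another HMGB1 window held 1. Of the cell cycle homology forms, TTTGAA occurred once in a HMGB3 window and once in a HMGB1 window (15.2% of all promoters), and the form TTCGAA in none (1.45%). The E2F forms TTTGGCGC (0.652%), TTTCGCGC (0.515%) and TTTCCCGC (1.63%) occurred in none. A match is a description of the sequence and not a shown site, and no match says only that these letters are not in these windows. In SLO against VEH the log2 fold changes in CPM were −0.75 for HMGB1, −0.79 for ANP32A, −0.11 for HMGB3 and −1.14 for ANP32B. The part of NF-Y in these differences was not tested.

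Genes on a list of E2F, DREAM and NF-Y factors, which also held MYC, did not move as one. Of 23 genes tested on that list, 12 were called lower and 4 higher in SLO against VEH, with a median log2 fold change of −0.20. The shares of all tested genes called in that comparison were 32.1% lower and 32.9% higher. NFYA, the DNA-contacting subunit of NF-Y, changed by −0.25 (edgeR adjusted p = 2.93e-05) and NFYC by 0.02 (adjusted p = 0.795). MYC fell by 0.73 (adjusted p = 1.1e-13) and the repressor gene E2F8 by 1.19 (adjusted p = 5.89e-13), whereas MYBL2 rose by 0.66 (adjusted p = 2.28e-14). NFYA and NFYC were picked out after their values had been seen. Markers of the G2 and M phases were lower for 18 of 20 genes (median −0.45), with CCNB1 (−0.78, adjusted p = 3.82e-16), MKI67 (−0.89, adjusted p = 6.38e-15) and AURKA (−0.66, adjusted p = 6.77e-14) leading, and none higher. Their TPM summed to 11250 to 11352 per VEH library, 9276 to 9790 per SLO ½ library and 7993 to 8546 per SLO library. The part of cell cycle position in the levels of the HMG and ANP32 genes was not tested.

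**Figure D5:**
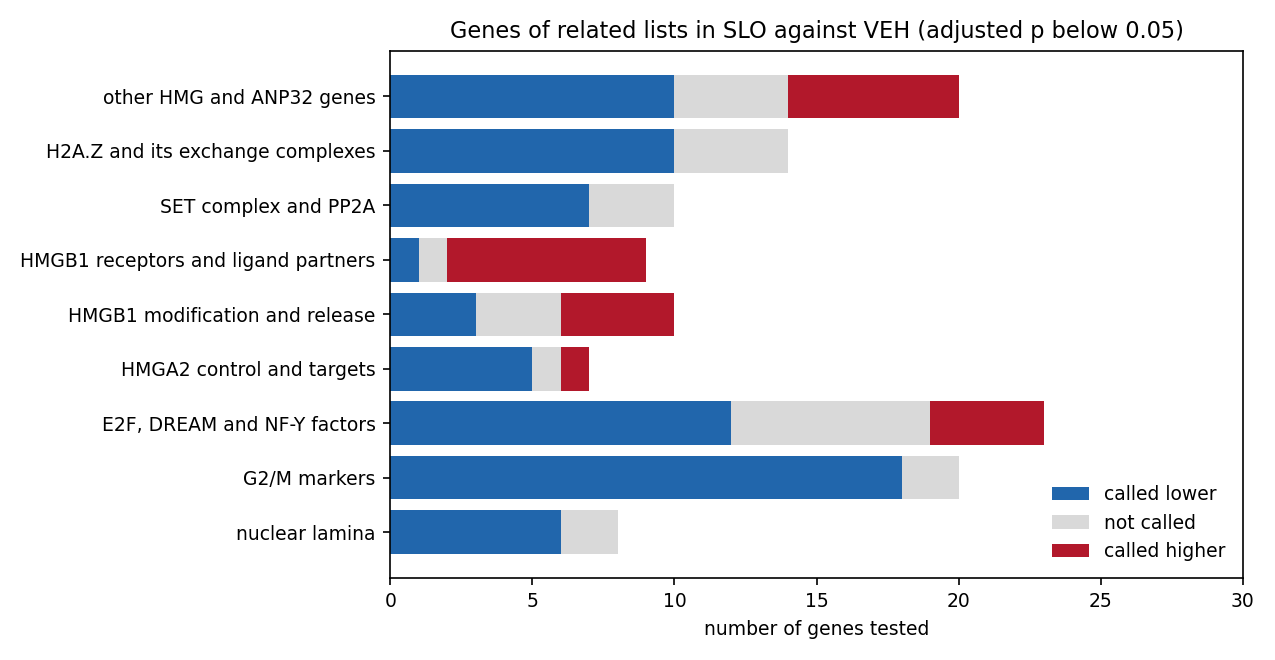
Number of tested genes (horizontal axis) in each of 9 lists of related genes that was called lower, not called or called higher in SLO against VEH by edgeR at an adjusted p below 0.05. No gene was called higher among the H2A.Z, SET and PP2A, G2/M and nuclear lamina lists, and 7 of 9 were called higher among the HMGB1 receptors and ligand partners. Over all tested genes 32.1% were called lower and 32.9% higher.

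Most partners of ANP32E were also lower, with smaller fold changes. Of 14 genes for H2A.Z and its exchange complexes, 10 were called lower and none higher in SLO against VEH. Of all tested genes 32.1% and 32.9% were, and the median log2 fold change of the 14 was −0.33. H2AZ1, the main H2A.Z gene, stood at 861, 882 and 981 TPM in VEH, 851, 807 and 847 TPM in SLO ½ and 723, 674 and 692 TPM in SLO, and was called lower at the full dose (−0.38 ± 0.04, edgeR adjusted p = 1.36e-08) but not in SLO ½ (−0.08, adjusted p = 0.127). H2AZ2 changed by −0.31 in SLO ½ (adjusted p = 1.49e-07) and by −0.23 at the full dose (adjusted p = 8.31e-06). ACTR6 of the SRCAP complex fell by 0.65 (adjusted p = 2.05e-11), ACTL6A, an actin-related subunit of TIP60, by 0.48 (adjusted p = 1.01e-10) and the ATPase gene RUVBL2 by 0.52 (adjusted p = 4.65e-10).

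The partners of ANP32A gave a like picture. SET, the histone chaperone that joins ANP32A in inhibiting acetylation and PP2A, fell from 584, 620 and 621 TPM in VEH to 429, 422 and 440 TPM in SLO ½ and 371, 339 and 360 TPM in SLO (log2 fold change −0.76 ± 0.04 in SLO against VEH, edgeR adjusted p = 7.48e-16), beside −0.79 for ANP32A. The nuclear exporter gene XPO1 fell by 0.56 (adjusted p = 1.42e-13) and NME1, a nuclease of the SET complex, by 0.72 (adjusted p = 1.9e-10). In all, 7 of 10 tested genes of the SET complex and PP2A were called lower (32.1% of all tested genes) and none higher (32.9%). The median of the 10 was −0.25. The catalytic subunit gene PPP2CA was not called (−0.08, adjusted p = 0.0775), and it was picked out after its value had been seen.

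Linker histones compete with HMG proteins for nucleosomes. H1-2, one of them, rose from 140, 150 and 153 TPM in VEH to 373, 360 and 358 TPM in SLO ½ and 742, 607 and 646 TPM in SLO (log2 fold change 2.18 ± 0.06 in SLO against VEH, edgeR adjusted p = 9.84e-22), while H1-10, another, fell by 0.73 (adjusted p = 4.58e-12). Transcripts of replication-dependent histones such as H1-2 largely lack poly(A) tails, and these libraries were selected for poly(A), so the value counts only its polyadenylated transcripts. Of 8 nuclear lamina genes 6 were called lower (32.1% of all tested genes) and none higher (32.9%), with a median of −0.45. Among those lower were LMNB1 (449, 450 and 445 TPM in VEH, 222, 214 and 225 TPM in SLO, −1.02 ± 0.04, adjusted p = 3.16e-19), LMNB2 (−0.81, adjusted p = 9.02e-17) and TMPO (−0.56, adjusted p = 5.53e-13).

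The wider HMG box and ANP32 relatives did not follow as a class. Of 25 listed, 20 were tested, and 10 were called lower and 6 higher in SLO against VEH, with a median of −0.12. Of all tested genes, 32.1% were called lower and 32.9% higher. SSRP1, the HMG box subunit of the histone chaperone FACT, fell the most of those named here, from 407, 415 and 405 TPM in VEH to 270, 267 and 276 TPM in SLO ½ and 210, 208 and 212 TPM in SLO (−0.95 ± 0.04, edgeR adjusted p = 7.47e-19). BBX fell by 0.63 (adjusted p = 6.02e-14) and HMGXB4 by 0.37 (adjusted p = 2.32e-08). HMGB4 and TOX3 had a mean of 0 TPM in each group, and ANP32C and ANP32D, intronless relatives, had means below 1 TPM, these 4 also being named after their values had been seen.

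Most genes that sense or bind HMGB1 outside the cell were higher after treatment. Of 13 listed, 9 were tested and 7 were called higher in SLO against VEH (32.9% of all tested genes). The median log2 fold change of the 9 was 1.91. TLR4 rose from 2.66, 3.43 and 3.99 TPM in VEH to 12.8, 11.9 and 13.5 TPM in SLO ½ and 13.3, 13.7 and 14.4 TPM in SLO (2.03 ± 0.09, edgeR adjusted p = 7.45e-18), with no further change called from SLO ½ to SLO (0.08, adjusted p = 0.386). TLR2 rose by 2.19 ± 0.46 (adjusted p = 0.000124), but from 3 to 18 reads per library over the series. CD24, which binds HMGB1 and dampens its signal, rose by 2.00 (adjusted p = 1.14e-15) and THBD, which sequesters HMGB1, by 1.91 (adjusted p = 4.16e-07). AGER, the gene of RAGE, was the exception, at 11.0, 10.8 and 7.49 TPM in VEH and 6.97, 8.09 and 5.40 TPM in SLO (−0.48 ± 0.19, adjusted p = 0.0284), with overlapping libraries. LY96, the partner TLR4 needs, was not called (−0.72 ± 0.52, adjusted p = 0.233) and was picked out after its value had been seen.

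Genes that modify HMGB1 or let it out went both ways. Of 10 tested, 4 were called higher and 3 lower in SLO against VEH, with a median of 0.10. These counts lie near the shares of all tested genes, 32.9% higher and 32.1% lower. PARP1, whose product modifies HMGB1 after DNA damage, fell by 0.49 (edgeR adjusted p = 4.25e-12) and the acetyltransferase gene CREBBP by 0.56 (adjusted p = 1.99e-10), whereas NINJ1, which ruptures the plasma membrane of dying cells, rose from a mean of 22.1 TPM in VEH to 32.4 TPM in SLO ½ and 40.7 TPM in SLO (0.88 ± 0.08, adjusted p = 2.96e-10). Protein levels, HMGB1 release and its place in the cell are not measured by these libraries.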

How the data were processed

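PolyA RNA libraries (KAPA RNA HyperPrep) were made by the authors, who per the labels trimmed reads with Trimmomatic 0.38 and aligned them to GRCh38 with STAR 2.7.1a. The deposited counts are whole numbers of uniquely aligned reads per gene, without normalization, so reads shared with pseudogenes are missing from them. The authors also deposited TPM, scaled for gene length and depth. How gene length was set and which annotation release was used are not given in the sources used here. Reads matching several places came to 7.16% to 8.52%.

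In R 4.3.3, edgeR 4.0.16 fitted a quasi-likelihood model with 3 groups to all 9 libraries after filterByExpr (14727 of 61544 genes) and TMM scaling (0.968 to 1.035), and p-values were adjusted by Benjamini-Hochberg over all tested genes, with calls at adjusted p below 0.05. Fold changes and SE are from this fit, means and SD from 3 libraries. The script was tested on simulated data. Replicates differed by more than sampling noise (chi-square per degree of freedom 1.78 to 4.19). Gene lists, members and tests were chosen with earlier results of these data known. Named were the 10 genes, the 3 genes of smallest p in SLO against VEH per list, H2AZ1, H2AZ2, SET, LMNB1, TLR2, TLR4 and AGER, the pseudogenes with most reads, and the 5 nearest genes (average log2 CPM at least 2) for 4 members. Genes outside this rule are marked. A result of the rule, and the counts of the list it belongs to, are not reported here. Coordinates of the 10 genes are the authors' (GRCh38), 3′ UTRs and exons were taken from GENCODE v44 on hg38, and promoters and microRNAs from RefSeq. Alternatives used other scalings, filters, DESeq2 1.42.0, limma 3.58.1 on log2(TPM + 1) and log2(TPM + 0.1), the replicate block, left-out libraries and added pseudogene reads.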

Additional observations from a re-analysis of the deposited data

How the results depend on the processing

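Under 16 alternatives per comparison, 459 of 480 recomputed fold changes of the 10 genes had the direction and call given in the report. The other 21 all concerned HMGB3 or HMGN1. From SLO ½ to SLO the uncalled HMGB3 change turned positive with scaling by library size only (0.014), with limma on log2(TPM + 1) and log2(TPM + 0.1) (0.024 in both), and without SLO ½ replicate 1 or SLO replicate 3 (leave-one-out range −0.032 to 0.0065). The cause was not tested. The number of the 10 genes called lower was 8 to 10 in SLO against VEH, 8 to 10 in SLO ½ against VEH, and 7 throughout from SLO ½ to SLO. Over all genes, calls ranged from 8634 (DESeq2) to 9930 (no expression filter) in SLO against VEH, all within 1.5 times the 9565 of the report. With scaling by library size only, the split in that comparison went from 4843 higher and 4722 lower to 5624 higher and 3870 lower, and the number called lower went from 3727 to 3049 in SLO ½ against VEH and from 2996 to 2621 from SLO ½ to SLO, which lowers the background for the 10 genes. In the same setting the number of the 10 genes called lower in SLO against VEH went from 10 to 8.

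Samples share replicate numbers, but nothing says that a number marks a shared culture or day. Deviations of same-numbered libraries correlated at 0.0028 to 0.087, against −0.062 to 0.037 for libraries of different treatment and number. Not every library correlated best with its own number, so the numbers were not taken as pairs. A weak shared factor was not tested. With the replicate block, 9622, 7749 and 6162 genes were called in the 3 comparisons, and 10, 9 and 7 of the 10 genes. HMGA2, the shallowest of the 10, rested on 391 to 2079 reads per library, and TLR2 on 3 to 18.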
